A study of Mus musculus with 2 samples.

Results

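The guidance genes described here are 9 listed genes of the semaphorin, plexin and netrin systems, Sema3a, Sema3d, Sema3f, Sema3g, Sema6a, Plxnd1, Plxna2, Ntn1 and Unc5b, out of 27933 gene symbols measured. They were chosen by name, with earlier results of these data known. All 9 had UMIs in both libraries, a UMI being the tag of 1 captured RNA molecule. Cells came from mouse mandibular lymph nodes, which receive lymph from head and neck, taken 24 h after the operation, with 1 library for sham-operated mice and 1 for mice with subarachnoid haemorrhage (SAH). In SAH blood enters the fluid-filled space that surrounds the brain, here as an infusion of autologous blood. Nodes of 20 mice a group were pooled, cells bearing CD45 were depleted, and cells held by anti-CD31 or anti-PDPN antibodies were collected on beads. Strain, genotype, sex and age of the mice are not given in the sources used here. With pooled animals and 1 library a group there is no replicate check, so no test was made and no p-value is given. Each statement compares the sham library with the SAH library, and bracketed ranges are exact 95% intervals that cover counting error only.

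Semaphorins are cues that steer migrating cells and growing processes. Class 3 semaphorins are secreted and act mostly through a neuropilin, which binds the ligand, and a plexin, which carries the signal, while class 6 semaphorins stay in the membrane and bind A-type plexins directly. Netrin-1 is a secreted cue read by DCC, neogenin and the UNC5 receptors, and plexin D1 and UNC5B are best known in vessels for restraining sprouting. In lymphatic endothelium, semaphorin 3A is known for its part in valve formation and in the passage of dendritic cells into lymph vessels.

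Of the members, 6 of 9 matched an entry in a RefSeq table of promoters (GRCm38.p6), namely Sema3a, Sema3d, Sema3g, Plxnd1, Plxna2 and Unc5b. Sema3f and Ntn1 had no entry and Sema6a was not looked up, so these genes are named only. The 250 bases before the RefSeq start are shown for the secreted class 3 semaphorins that matched. These genes did not rise alike. In lymphatic endothelial cells the SAH value was 1.89 times the sham value for Sema3a, 1.05 for Sema3d and 1.41 for Sema3g. Each stretch is given 5′ to 3′ on the plus strand, with motif matches in capitals.
Sema3a: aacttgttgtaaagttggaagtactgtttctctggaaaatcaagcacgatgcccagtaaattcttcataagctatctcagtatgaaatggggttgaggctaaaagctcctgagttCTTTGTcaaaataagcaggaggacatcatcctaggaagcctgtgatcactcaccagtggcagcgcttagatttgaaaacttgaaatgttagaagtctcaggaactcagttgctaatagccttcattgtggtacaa
Sema3d: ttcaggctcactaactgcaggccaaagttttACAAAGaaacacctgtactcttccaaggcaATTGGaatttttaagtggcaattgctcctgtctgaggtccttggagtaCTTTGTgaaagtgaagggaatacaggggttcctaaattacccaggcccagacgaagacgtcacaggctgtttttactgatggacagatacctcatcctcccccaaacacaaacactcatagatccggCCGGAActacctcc
Sema3g: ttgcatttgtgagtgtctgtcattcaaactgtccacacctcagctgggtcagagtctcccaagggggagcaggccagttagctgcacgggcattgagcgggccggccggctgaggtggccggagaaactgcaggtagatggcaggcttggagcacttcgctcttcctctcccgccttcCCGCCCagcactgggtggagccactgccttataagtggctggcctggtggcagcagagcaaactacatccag
The Sema3a stretch is chr5:13396534-13396783, which lies inside the longer GENCODE M21 model of Sema3a and outside its exons. The Sema3d stretch is chr5:12382916-12383165 and overlaps no annotated gene. The Sema3g stretch is chr14:31217623-31217872 and its last bases overlap the first exon and UTR of Sema3g in GENCODE M21. GC content was 40.8% with 2 CpG in Sema3a, 46.8% with 4 CpG in Sema3d and 60.4% with 8 CpG in Sema3g, against medians of 52.4% and 6 CpG over all 32851 promoters of the table. Of 12 motifs searched on both strands, the SOX core ACAAAG was found 1 time in Sema3a, 135 bases before the start, and 2 times in Sema3d, 219 and 141 bases before it. That motif stands in 16.5% of all promoters. Sema3d also held CCAAT, 189 bases before the start (33.8% of promoters), and the ETS core CCGGAA, 14 bases before it (12.0%). Sema3g held the GC box GGGCGG, 72 bases before the start (32.7%). The other motifs, TATAAA (12.4%), TGANTCA of AP-1 (6.75%), the IRF element (2.98%), CACGTG (6.02%), AGATAA of GATA (9.99%), GGAATG of TEAD (12.6%), GTGGGAA of RBPJ (5.42%) and TGTTTAC of FOX (3.17%), had no match in these 3 stretches. No motif searched lies wholly inside another, and a match describes letters only. Sema3a and Sema3d are neighbours on chromosome 5, both on the plus strand, at 13125414 to 13602565 and 12383385 to 12588948 (GRCm38, GENCODE M21), with 536465 bases and 0 coding genes between them. Of the other members, Sema3f lies at chr9:107681500-107710475, Sema3g at chr14:31217860-31230352, Plxnd1 at chr6:115954811-115995005, Plxna2 at chr1:194618218-194816869, Ntn1 at chr11:68209364-68400823 and Unc5b at chr10:60762593-60831581.

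Barcodes numbered 13952 (sham) and 13766 (SAH), and their UMIs 72860197 and 78497486. With at least 500 genes and at most 10% mitochondrial UMIs, 11157 sham cells (median 5039 UMIs) and 11454 SAH cells (median 5747 UMIs) were kept. The libraries shared 76 barcodes, 0.545% of the sham and 0.552% of the SAH barcodes. Lymphatic endothelial cells (LEC), which line the sinuses that carry lymph, were cells with a Prox1 UMI, 2364 sham and 2562 SAH cells. Blood endothelial cells (BEC) had Pecam1 and Ly6c1 or Flt1 UMIs and no Prox1 UMI, 6329 and 6480 cells. Fibroblastic stroma, the supporting fibroblasts, had at least 3 Dcn and Col3a1 UMIs and no Prox1 or Pecam1 UMI, 1532 and 1631 cells. The labels name lymphatic endothelium only, and these gates found more BEC than LEC. The markers Prox1, Flt4, Lyve1, Pdpn, Mmrn1 and Reln summed to 2138 sham and 2833 SAH CPM (the usual scaling of UMI counts to the total of the class) in LEC, against 77.4 and 118 in BEC. Without the gate's own gene the same held, with Lyve1 at 572 and 987 CPM in LEC against 31.7 and 41.6 in BEC, and Flt4 at 169 and 273 against 25.3 and 38.6. Cells called doublets by Scrublet were kept, as the gates name no such step, and were 299 sham and 394 SAH cells of LEC.

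LEC were split into those with Ackr4 alone (1096 sham and 982 SAH cells), a marker of the ceiling of the subcapsular sinus, those with Madcam1 or Coch alone (447 and 452), markers of its floor, and those with Marco alone (92 and 244), a marker of medullary sinuses. BEC were split into those with Gja5 alone (204 and 105), an arterial connexin, those with Fut7 or Chst4 alone (879 and 1025), enzymes of high endothelial venules, and those with Col13a1 alone (1960 and 1799), a capillary marker. Cells with none or several of these stayed unsplit. The subsets did not match in content between libraries. Of the floor markers in Madcam1 or Coch LEC, the chemokine gene Ccl20 was 5289.9 sham and 1217 SAH CPM, Itga2b 244 and 540.4, Madcam1 643 and 503, and Coch 1066 and 948. In Ackr4 LEC these 4 summed to 29.7 and 141 CPM. The venule genes Fut7, Chst4, Glycam1 and Ackr1 summed to 19899 sham and 15398 SAH CPM in Madcam1 or Coch LEC. They summed to 1125 and 1779 CPM in Ackr4 LEC and 665 and 1140 CPM in Marco LEC. The LEC markers summed to 1132 and 1449 CPM in Madcam1 or Coch LEC, against 2356 and 2927 in Ackr4 LEC and 3608 and 5482 in Marco LEC. The part of such shifts and of such genes in the results below was not tested.

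Leukocytes left in the libraries served as a comparison for low counts. In 130 sham and 37 SAH such cells (median 2192 UMIs in sham), Sema3g, Ntn1 and Unc5b had 0 UMIs. The other members had some. Plxnd1 had 8 sham and 2 SAH UMIs (24.2 and 17.3 CPM), Sema6a 4 and 0, Plxna2 3 and 1, Sema3d 2 and 0, Sema3a 1 and 0, and Sema3f 0 and 1. The neuropilin gene Nrp1 had 27 and 3. With each cell thinned to 2000 UMIs, 3 cells of the 76 sham and 27 SAH leukocytes left correspond to a share of 3.95% and 11.1%. These limits are set by the number of leukocytes, not by a measured signal. A share at or under them cannot be told from background here, which does not show that the cells lack the RNA. With so few leukocytes the SAH limit is coarse, and a share can pass the sham limit and fail the SAH limit.

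**Figure D1:**
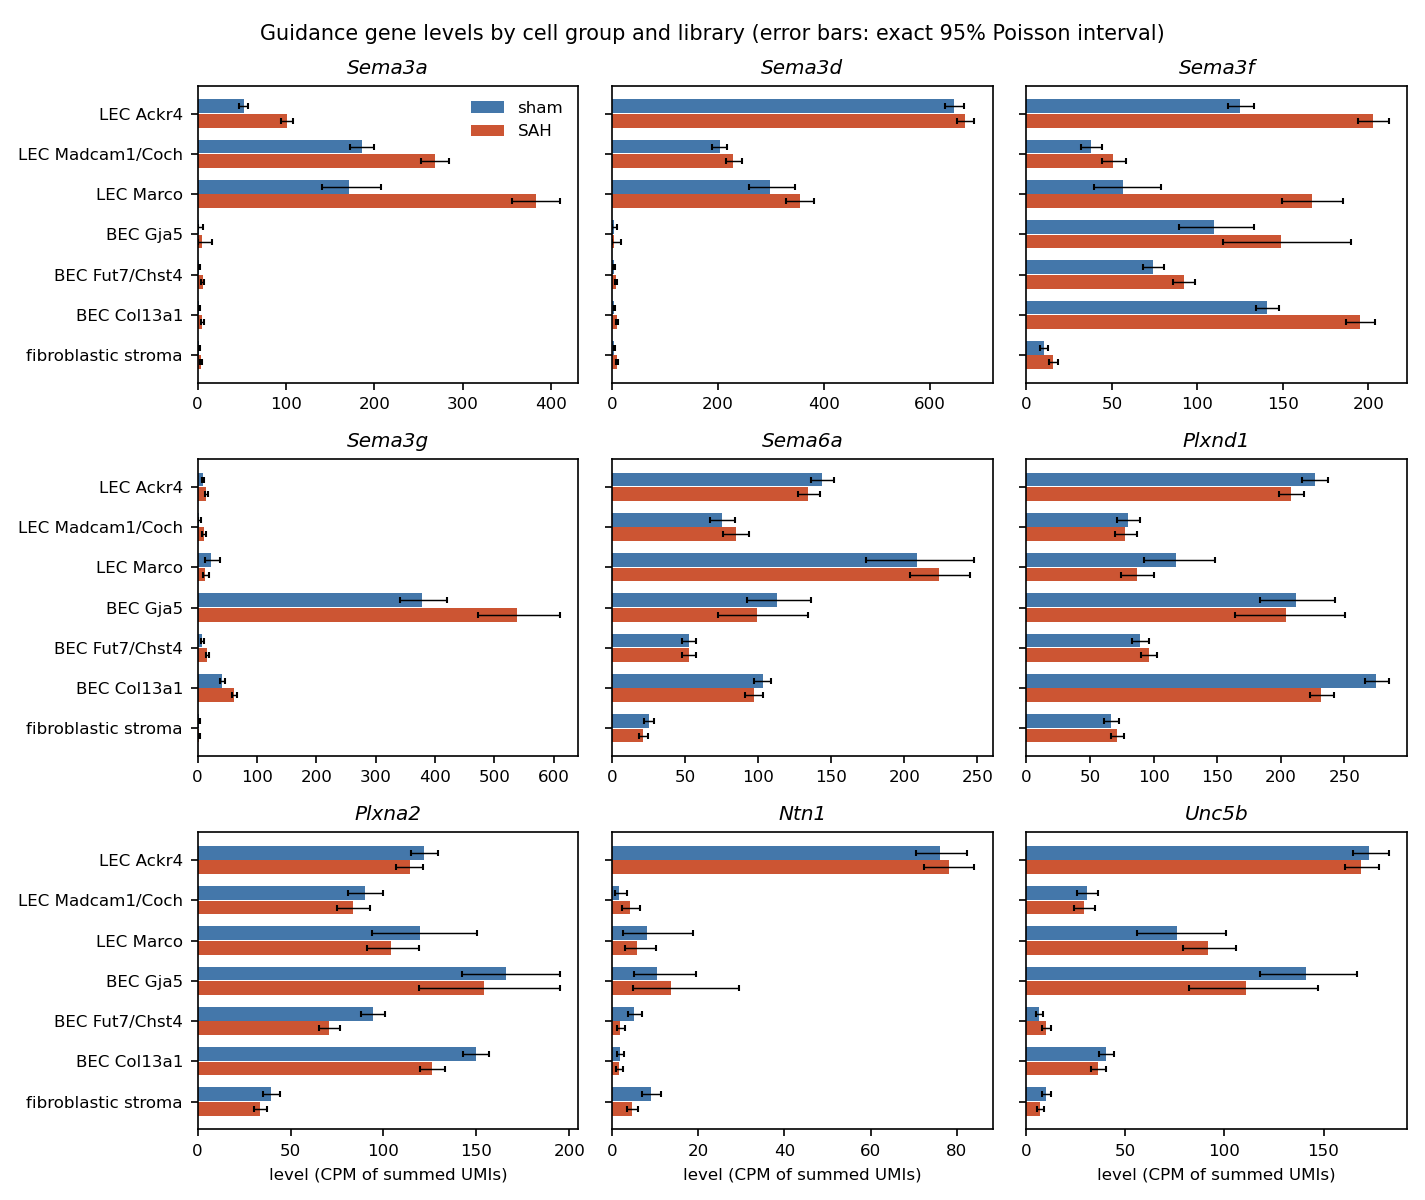
Level of each of the 9 genes in 7 cell groups (vertical axis) in CPM of UMIs summed over the cells of a group (horizontal axis, starting at 0), with a bar for the sham and a bar for the SAH library and exact 95% Poisson intervals. Sema3d reached 646 and 667 CPM in Ackr4 LEC, Sema3g 379 and 538 CPM in Gja5 BEC, and Ntn1 76.2 and 78.1 CPM in Ackr4 LEC.

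The listed secreted semaphorins divided the endothelium among them. Sema3a and Sema3d were lymphatic: Sema3a was 34.9-fold [28.6, 43.0] higher in LEC than in BEC in the sham library and 23.2-fold [20.7, 26.2] in the SAH library, and Sema3d 52.3-fold [46.7, 58.9] and 35.6-fold [32.5, 39.1]. Sema3g had its highest level in the arterial subset, 9.09-fold [7.90, 10.5] and 8.67-fold [7.44, 10.1] higher in Gja5 BEC than in Col13a1 BEC. That small subset held 360 of the 2037 sham and 238 of the 2714 SAH Sema3g UMIs of BEC. BEC with none of the subset markers held 1063 and 1586. Sema3f was spread over both kinds of endothelium, 0.851 times [0.804, 0.901] as high in LEC as in BEC in the sham library and 1.08 times [1.04, 1.13] in the SAH library.

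Sema3a encodes semaphorin 3A, a ligand of neuropilin-1 with A-type plexins. Its level in LEC was 99.4 sham and 188 SAH CPM, 1.89-fold higher [1.79, 1.99]. In Ackr4 LEC it was 52.0 and 101 CPM (1.95-fold [1.74, 2.19]). In Madcam1 or Coch LEC it was 186 and 269 CPM (1.44-fold [1.32, 1.59]). In Marco LEC it was 171 and 383 CPM (2.23-fold [1.82, 2.76]). The SAH value was above the sham value in each LEC subset, and also in the LEC with none of the subset markers (81.4 and 165 CPM) and with several (137 and 219 CPM). The ranges over the libraries of Marco LEC and of Madcam1 or Coch LEC overlapped, and both lay above Ackr4 LEC. In the sham library the ratio of Marco to Madcam1 or Coch LEC was 0.922 [0.745, 1.13], and in the SAH library it was 1.42 [1.30, 1.56].

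Thinned to 2000 UMIs a cell, 15.2% [13.8, 16.8] of sham and 26.6% [24.9, 28.4] of SAH LEC had a Sema3a UMI (37.9% and 56.9% unthinned, at median depths of 6872 and 8193 UMIs). In Marco LEC the thinned share was 23.9% [15.4, 34.1] and 47.5% [40.9, 54.0]. Cells with at least 2 Sema3a UMIs after thinning made up 2.80% of sham and 8.01% of SAH LEC. More LEC held the RNA in the SAH library, and more of them held several copies. With the LEC subsets given the same composition in both libraries the fold was 1.75, and it was between 1.75 and 2.01 over all alternatives. Without the 10 cells of most Sema3a UMIs in each library, the fold in Marco LEC was 3.41, against 2.23 with all cells. That removal took a larger part of the 92 sham than of the 244 SAH Marco LEC, and of their Sema3a UMIs. It therefore raises the fold by its construction, and whether a few cells carry the difference in Marco LEC cannot be read from it.

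Sema3a was low elsewhere. In BEC it was 2.85 sham and 8.07 SAH CPM (2.83-fold [2.26, 3.58]), and in fibroblastic stroma 1.51 and 4.09 CPM (2.70-fold [1.40, 5.62]). Over the alternatives the fold was between 2.62 and 3.68 in BEC. In fibroblastic stroma, from 12 and 44 UMIs, it was between 1.61 and 11.4. Thinned shares of BEC with a UMI were 0.381% and 1.42%, under the leukocyte limits, so they cannot be told from background here. The summed LEC markers in BEC were 77.4 and 118 CPM and those in fibroblastic stroma 76.9 and 109 CPM, and their part in these levels was not tested.

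Sema3d, another secreted class 3 semaphorin, was 434 sham and 455 SAH CPM in LEC, a fold of 1.05 [1.02, 1.08]. It was 646 and 667 CPM in Ackr4 LEC, 299 and 355 CPM in Marco LEC, and 203 and 229 CPM in Madcam1 or Coch LEC. The order of the 3 LEC subsets was the same in both libraries and their ranges did not overlap, with Ackr4 LEC 3.18-fold [2.96, 3.43] above Madcam1 or Coch LEC in sham and 2.91-fold [2.71, 3.12] in SAH. A Sema3d UMI was found in 71.1% of sham and 66.7% of SAH Ackr4 LEC after thinning. Sema3a and Sema3d were thus both lymphatic, but Sema3a was lowest in the ceiling-marked subset where Sema3d was highest. Across the 7 groups in both libraries (14 points, which share libraries and depth) their r of log2(CPM+1) was 0.94, and both genes were low in every group outside LEC.

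In BEC, Sema3d was 8.30 sham and 12.8 SAH CPM, 1.54-fold higher [1.33, 1.78]. After thinning, 1.13% of sham and 2.25% of SAH BEC had a UMI, under the leukocyte limits, and the LEC markers in BEC moved the same way. The gene no longer passed in BEC with a stricter cell filter (at least 1000 genes and at most 5% mitochondrial UMIs), with called doublets removed, with at least 3 Ly6c1 and Flt1 UMIs, under TMM scaling, without the 10 cells of most UMIs or with the same composition of subsets, because its mean level fell under 10 CPM or its fold under 1.5. Those folds ran from 1.37 to 1.81. In fibroblastic stroma the level was 4.54 and 8.55 CPM, and in the few Pi16 fibroblasts (70 sham and 50 SAH cells), which lie around larger vessels, 29.5 CPM [14.2, 54.3] and 37.2 CPM [17.0, 70.7].

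Sema3f encodes semaphorin 3F, whose neuropilin is neuropilin-2. In LEC it was 92.0 sham and 152 SAH CPM, 1.65-fold higher [1.56, 1.75]. In Ackr4 LEC it was 125 and 203 CPM (1.62-fold [1.5, 1.75]), and in Madcam1 or Coch LEC 37.8 and 50.7 CPM (1.34-fold [1.08, 1.66]), with a thinned share of 8.31% in SAH that is under the leukocyte limit. In Marco LEC it was 56.6 and 167 CPM, 2.95-fold higher [2.08, 4.30], from 35 sham and 345 SAH UMIs. The SAH library was higher in each LEC subset, and the Marco subset moved from well under the Ackr4 subset (sham ratio of Ackr4 to Marco LEC 2.21 [1.58, 3.19]) to near it (SAH ratio 1.21 [1.08, 1.37]). That subset is small, and its fibroblast markers summed to 2953 sham and 1209 SAH CPM, a difference whose part in the result was not tested.

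In BEC, Sema3f was 108 sham and 140.2 SAH CPM, 1.30-fold [1.24, 1.35]. It was 141 and 195 CPM in Col13a1 BEC (1.38-fold [1.30, 1.48]), 74.2 and 91.9 CPM in Fut7 or Chst4 BEC (1.24-fold [1.11, 1.38]), and 109.6 and 149 CPM in Gja5 BEC (1.36-fold [0.985, 1.87]). The capillary and arterial subsets were thus above the venule subset in both libraries. Thinned shares of Col13a1 BEC with a UMI were 24.4% [22.4, 26.4] and 33.5% [31.2, 35.8]. In fibroblastic stroma Sema3f was 10.3 and 15.6 CPM, 1.51-fold [1.15, 1.99], but 2.11% and 3.04% of thinned cells had a UMI, under the leukocyte limits. That fold was 1.48 with called doublets removed and 1.47 with at least 10 Dcn and Col3a1 UMIs.

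Sema3g, a semaphorin made by arterial endothelium that binds neuropilin-2, was 379 sham [341, 421] and 538 SAH CPM [472, 611] in Gja5 BEC, 1.42-fold [1.20, 1.68]. In Col13a1 BEC it was 41.7 and 62.1 CPM (1.49-fold [1.32, 1.68]), in Fut7 or Chst4 BEC 8.07 and 16.4 CPM (2.03-fold [1.51, 2.76]), and in BEC with none of the subset markers 76.7 and 103 CPM (1.34-fold [1.24, 1.45]). Over all BEC it was 55.8 and 73.3 CPM (1.31-fold [1.24, 1.39]), with the SAH value the higher in each subset. The thinned shares in Fut7 or Chst4 BEC, 1.62% and 4.33%, were under the leukocyte limits, and that of SAH Col13a1 BEC, 10.6% after 8.22% in sham, was just under its limit. A UMI was found in 48.6% [41.1, 56.2] of sham and 61.6% [50.5, 71.9] of SAH Gja5 BEC after thinning, intervals that overlap. The summed arterial markers Gja5, Gja4, Bmx, Hey1 and Efnb2 of that subset were 1766 sham and 1368 SAH CPM, so they went the other way.

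In LEC, Sema3g was 10.5 and 14.8 CPM, and thinned shares of 2.11% and 2.95% were under the leukocyte limits. Its mean level over both libraries was 12.7 CPM in LEC and 1.42 CPM in LEC lacking Ly6c1 and Flt1 UMIs. The 10 cells of most Sema3g UMIs held 21.0% of those of sham LEC and 21.4% of those of SAH LEC. In SAH Madcam1 or Coch LEC such cells held 72.7%, with 15 UMIs in 1 cell. In Marco LEC, Sema3g was 22.6 CPM [12.4, 38.0] and 13.1 CPM [8.61, 19.0], from 14 and 27 UMIs, with an interval of the fold that spans 1. This was the only 1 of the 6 subsets in which a listed class 3 semaphorin was lower in SAH.

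**Figure D2:**
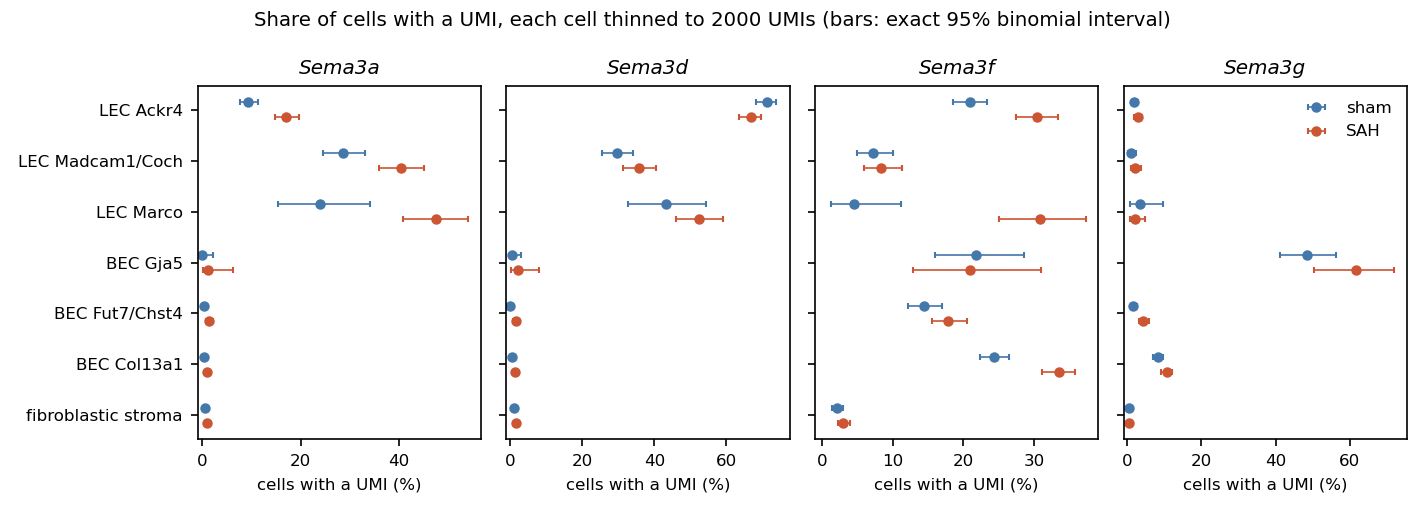
Share of cells with at least 1 UMI of each listed class 3 semaphorin, in percent (horizontal axis), for 7 cell groups (vertical axis) and both libraries. Each cell was thinned to 2000 UMIs, and lines are exact 95% binomial intervals. Sema3a in Marco LEC went from 23.9% to 47.5% and Sema3f in Col13a1 BEC from 24.4% to 33.5%, without overlap of the intervals, while Sema3d in Ackr4 LEC was 71.1% and 66.7%.

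Sema6a, a membrane semaphorin that binds plexins A2 and A4, differed little between the libraries. It was 138 sham and 135 SAH CPM in LEC (0.979-fold [0.928, 1.03]), 94.4 and 90.0 CPM in BEC (0.953-fold [0.908, 0.999]) and 25.2 and 21.5 CPM in fibroblastic stroma (0.852-fold [0.702, 1.03]). Its highest level was in Marco LEC, 209 CPM [174, 248] and 224 CPM [204, 245], followed by Ackr4 LEC at 144 and 134 CPM. Gja5 and Col13a1 BEC came next with overlapping ranges, from 97.2 to 113 CPM, and Fut7 or Chst4 BEC had 52.5 and 52.7 CPM.

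Among the receptors, Plxnd1 encodes plexin D1, the receptor of semaphorin 3E in vessels. It was 183 sham and 152 SAH CPM in LEC, 0.829-fold [0.790, 0.869], and 216 and 189 CPM in BEC, 0.873-fold [0.846, 0.902]. In fibroblastic stroma it was 66.5 and 71.4 CPM, 1.07-fold [0.960, 1.20]. Col13a1 BEC had the highest level, 275 and 232 CPM (0.844-fold [0.80, 0.890]), and Ackr4 LEC (227 and 208 CPM) and Gja5 BEC (212 and 204 CPM) overlapped below it. Within LEC the fold was 0.918 [0.861, 0.979] in Ackr4 LEC, 0.971 [0.830, 1.14] in Madcam1 or Coch LEC, 0.733 [0.556, 0.976] in Marco LEC (118 and 86.6 CPM), 1.04 [0.890, 1.23] in LEC with several of the markers (126 and 132 CPM), and 0.653 [0.586, 0.727] in LEC with none, where the level was 237 and 154 CPM. Ackr4 LEC were 46.4% of sham and 38.3% of SAH LEC. In LEC with none of the markers the summed BEC markers were 2693 and 3396 CPM, and their part in the result was not tested.

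Plxna2 encodes plexin A2, which pairs with neuropilins for class 3 ligands and binds semaphorin 6A alone. It was lower in the SAH library in all 3 classes and all 6 subsets. Levels were 116 and 99.8 CPM in LEC (0.860-fold [0.810, 0.913]), 132 and 102 CPM in BEC (0.776-fold [0.743, 0.809]) and 39.6 and 33.7 CPM in fibroblastic stroma (0.852-fold [0.731, 0.994]). Fut7 or Chst4 BEC showed 94.5 and 70.6 CPM (0.747-fold [0.672, 0.831]). The interval of the fold lay under 1 in only 2 of the 6 subsets, that one and Col13a1 BEC (149.7 and 126 CPM). Gja5 BEC had the highest level, 166 and 154 CPM, but its ratio to Col13a1 BEC was 1.11 [0.939, 1.31] and 1.22 [0.939, 1.55], intervals that include 1.

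The neuropilins, coreceptors for the class 3 ligands, were placed differently from each other. Nrp1 was 1906 and 1928 CPM in Col13a1 BEC, 839.7 and 902 CPM in Gja5 BEC and 588 and 563 CPM in fibroblastic stroma, with folds of 1.01 [0.992, 1.03], 1.07 [0.951, 1.21] and 0.957 [0.921, 0.994]. In Madcam1 or Coch LEC it was 102 and 174 CPM, 1.71-fold higher [1.51, 1.93], and the 10 cells of most UMIs held 32.7% and 28.8% of it. Blood endothelial genes moved the same way in that subset, Flt1 from 79.0 to 180.5 CPM and Ly6c1 from 152 to 356 CPM, and their part in the result was not tested. Nrp2 was highest in Marco LEC, 217 and 234 CPM, and was higher in SAH in Ackr4 LEC, 126 and 166 CPM (1.32-fold [1.22, 1.43]), and in Fut7 or Chst4 BEC, 114 and 160.0 CPM (1.40-fold [1.29, 1.52]). In the latter subset the salivary epithelium markers summed to 105 and 2657 CPM and the myeloid markers to 1.71 and 134 CPM, and their part was not tested.

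Ntn1 encodes netrin-1. In LEC it was 43.9 sham and 44.8 SAH CPM, a fold of 1.02 [0.928, 1.12], and Ackr4 LEC, at 76.2 and 78.1 CPM (1.02-fold [0.920, 1.14]), held 641 of its 816 sham and 702 of its 1017 SAH UMIs. LEC with none of the subset markers had 31.3 and 33.0 CPM and LEC with several 27.2 and 42.6 CPM. Marco LEC had 8.09 and 5.80 CPM and Madcam1 or Coch LEC 1.71 and 4.12 CPM, so that Ackr4 LEC was 44.7-fold [21.6, 112] and 19.0-fold [11.8, 32.7] above the latter. After thinning, 15.1% [13.0, 17.4] of sham and 14.3% [12.2, 16.7] of SAH Ackr4 LEC had a UMI. Gja5 BEC had the next highest level of the 7 groups, 10.5 CPM [5.05, 19.4] and 13.6 CPM [4.98, 29.5], from 10 and 6 UMIs. Of the fibroblastic cells, Pi16 fibroblasts had 130.0 CPM [94.4, 174] and 112 CPM [73.6, 163] from 70 and 50 cells. Ccl19 fibroblasts, the reticular cells of T zones, had 0.288 and 1.36 CPM. Over all fibroblastic stroma the level was 8.95 and 4.64 CPM (0.519-fold [0.354, 0.756]), a class in which Pi16 cells were 70 of 1532 and 50 of 1631. In Fut7 or Chst4 BEC it was 5.14 and 1.91 CPM (0.372-fold [0.198, 0.667]), levels under the 10 CPM used for calls and at thinned shares under the leukocyte limits, as were those of the whole fibroblastic class (1.82% and 0.905%).

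Unc5b encodes a netrin receptor of endothelium. It was highest in Ackr4 LEC, the subset that also led for Ntn1, with 173 and 169 CPM (0.975-fold [0.907, 1.05]). Gja5 BEC followed with 141 and 111 CPM (0.785-fold [0.554, 1.10]), then Marco LEC with 76.0 and 91.9 CPM. Fut7 or Chst4 BEC had 6.36 and 10.00 CPM at thinned shares under the leukocyte limits (1.16% and 2.42%), so the arterial subset was 22.2-fold [16.0, 31.2] and 11.1-fold [7.66, 15.9] above the venule subset. Over whole classes the SAH library was lower: 120.2 and 109.8 CPM in LEC (0.914-fold [0.863, 0.968]) and 39.2 and 31.3 CPM in BEC (0.80-fold [0.740, 0.865]). Within LEC the difference was largest in cells with none of the subset markers, 113 and 70.9 CPM (0.628-fold [0.536, 0.735]), the same cells in which Plxnd1 was lower. Neo1, the netrin and RGM receptor neogenin, was mainly fibroblastic, 27.0 and 19.2 CPM there (0.713-fold [0.586, 0.867]) against 4.47 and 3.87 CPM in LEC.

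For 8 pairs of a ligand and a receptor or partner, cells of a subset with a UMI of the first gene were compared with those without. In thinned Ackr4 LEC, Unc5b was found in 36.6% [29.2, 44.5] of sham cells with Ntn1 and 30.9% [27.9, 34.0] of those without, and in 32.9% [25.2, 41.3] and 29.4% [26.3, 32.6] of SAH cells. For Sema3f and Nrp2 in the same subset, Nrp2 was found in 22.5% [17.2, 28.5] and 19.8% [17.2, 22.6] of sham cells with and without Sema3f, and in 30.0% [24.8, 35.5] and 26.0% [22.7, 29.5] of SAH cells. The widest gap was that of Plxna2 in Madcam1 or Coch LEC, found in 24.2% [17.1, 32.6] of sham cells with Sema3a and 13.5% [9.96, 17.8] of those without, against 15.0% [10.1, 21.1] and 12.8% [9.05, 17.5] in SAH. The intervals overlapped for all 8 pairs in both libraries, and in sparse counts such differences are no finding.

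**Figure D3:**
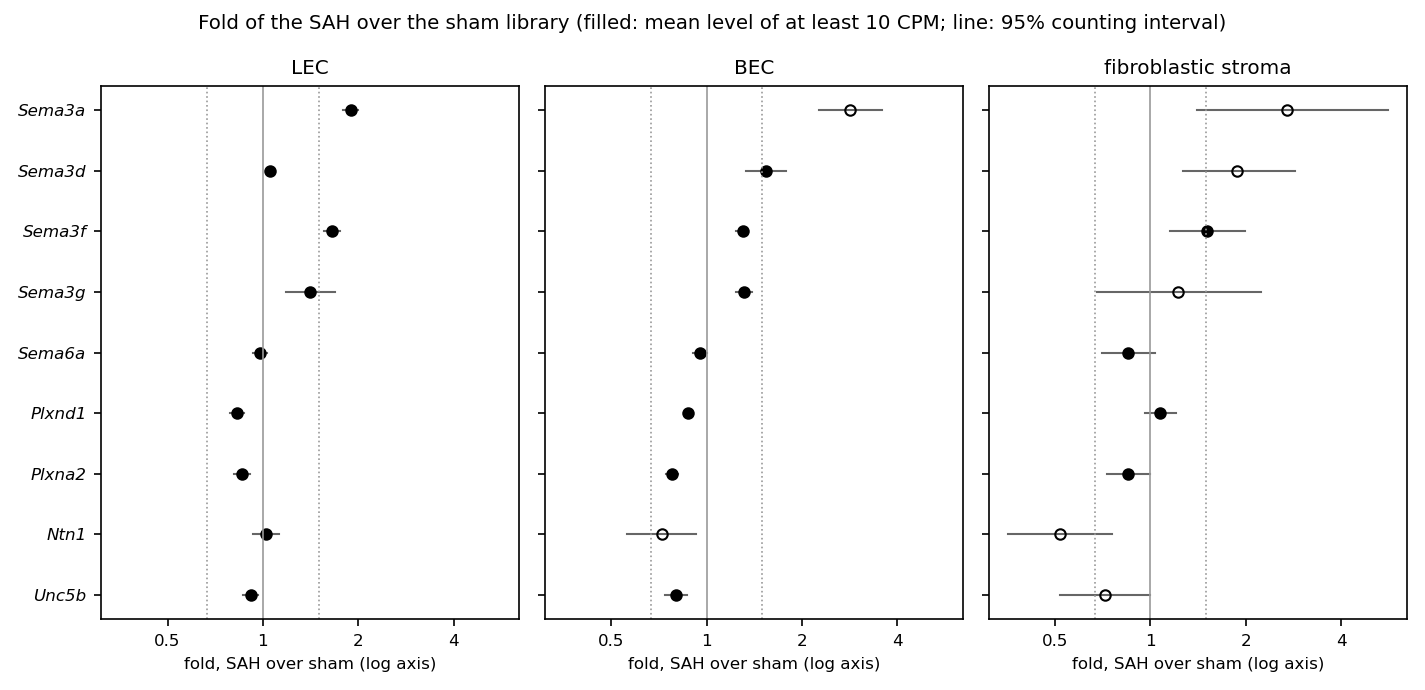
Fold of the SAH over the sham library for the 9 genes in LEC, BEC and fibroblastic stroma on a log axis, with 95% counting intervals; filled points have a mean level of at least 10 CPM and dotted lines mark 1.5-fold. Sema3a (1.89) and Sema3f (1.65) pass 1.5-fold in LEC, Plxna2 lies under 1 in each class, and open points are low levels.

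Over the 3 classes the members did not split by ligand and receptor. By level, the 4 listed class 3 semaphorins were each higher in the SAH library in 3 of 3 classes. The ligand Sema6a and the receptors Plxna2 and Unc5b were each lower in 3 of 3, while the coreceptor Nrp2 was higher in 3 of 3. Some of these directions turned under an alternative: Sema3d in LEC was 0.996-fold as a mean over cells, Sema3g in fibroblastic stroma, whose interval [0.678, 2.24] spans 1, was 0.671-fold without cells holding mural genes, and Sema6a was 1.07-fold in LEC lacking Ly6c1 and Flt1 UMIs and 1.07-fold in fibroblastic stroma without mural genes. By thinned share, Sema3d in LEC went the other way, lower in SAH at 2000 and at 1000 UMIs. Sema3g in fibroblastic stroma was lower at 2000 UMIs. Sema6a was higher at 2000 UMIs in fibroblastic stroma and at 1000 UMIs in BEC. Of all genes tested, 49.2% had a higher level in SAH in LEC, 48.7% in BEC and 42.3% in fibroblastic stroma. Of the 6 subsets, Sema3f was higher in 6, Sema3a and Sema3d in each of the 5 where they had a fold (in Gja5 BEC both libraries were at or under 3 UMIs), and Plxna2 was lower in 6, though its fold was 1.12 in Marco LEC under the stricter cell filter and 1.09 in Gja5 BEC as a mean over cells. In the same subsets the share of all genes higher in SAH was 51.1% in Ackr4 LEC, 50.2% in Madcam1 or Coch LEC, 49.7% in Marco LEC, 53.9% in Gja5 BEC, 45.2% in Fut7 or Chst4 BEC and 51.5% in Col13a1 BEC. Some of these directions are of levels at shares under the leukocyte limits. Because the members were chosen with earlier results of these data known, the shares of all genes are given for scale and do not test the list. By the size used for calls, 1.5-fold at a mean of at least 10 CPM, 2 of the 9 members tested in LEC were higher (Sema3a and Sema3f) and 0 were lower, where 5.42% of all 8624 genes were higher and 2.70% lower. In BEC, 1 of 7 was higher (Sema3d, at shares under the leukocyte limits) and 0 lower, against 5.30% and 2.08% of all genes. In fibroblastic stroma, 1 of 4 was higher (Sema3f, also at shares under these limits) and 0 lower, against 5.44% and 6.52%. The median log2 fold of the members was 0.03 in LEC, -0.07 in BEC and -0.06 in fibroblastic stroma, beside -0.01, -0.01 and -0.07 for all genes, so the median of the group lay near that of all genes.

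Within the subsets, 3 of 9 members were higher in Ackr4 LEC (Sema3a, Sema3f and Sema3g, the last at a thinned share under the leukocyte limits), where 5.63% of all genes were higher and 2.69% lower. In Madcam1 or Coch LEC 0 of 7 passed in either direction (8.05% and 5.10% of all genes). In Marco LEC 2 of 8 were higher (Sema3a and Sema3f) and 1 lower (Sema3g, at few UMIs), but with so few sham cells 14.2% and 12.5% of all genes passed there. In Fut7 or Chst4 BEC 1 of 5 was higher (Sema3g, at shares under these limits), against 5.83% higher and 3.30% lower. In Gja5 BEC 0 of 7 passed (17.1% and 11.9% of all genes) and in Col13a1 BEC 0 of 6 (6.15% and 2.89%).

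A wider list of 74 guidance genes, of which 73 were in the files, places the members among their pathway. Like the members, it was chosen with earlier results of these data known. It holds semaphorins, plexins, neuropilins, netrins and their receptors, other ligands of UNC5B or neogenin, Slit and Robo genes, and effectors of plexins. In LEC 41 of them were tested, 4 were higher and 1 lower, beside 5.42% and 2.70% of all genes, with a median log2 fold of -0.04. Besides Sema3a and Sema3f, the higher ones were Sema6b, a membrane semaphorin, at 34.4 and 56.7 CPM (1.65-fold [1.5, 1.82]), and Fes, a tyrosine kinase that acts below A-type plexins, at 17.6 and 29.0 CPM (1.65-fold [1.44, 1.89]). Fes is also a myeloid gene, and the myeloid markers summed to 10.3 and 27.7 CPM in LEC and to 6.17 and 32.8 CPM in fibroblastic stroma, where Fes was also higher; their part was not tested. Rnd1, a GTPase that binds plexins, was the lower one, at 101 and 65.1 CPM (0.647-fold [0.604, 0.693]). In LEC 6 of 10 semaphorins tested were above 0 with a median of 0.28, and 5 of 5 plexins were below 0 with a median of -0.22. In fibroblastic stroma 2 of 8 semaphorins (median -0.31) and 3 of 5 plexins (median 0.08) were above 0. Of all genes, 49.2% were above 0 in LEC and 42.3% in fibroblastic stroma. Intervals spanned 1 for Plxnb2 (0.971 [0.914, 1.03]) and Plxna4 (0.963 [0.893, 1.04]) in LEC. They also spanned 1 for Plxnb2 (1.06 [0.981, 1.14]) and Plxnd1 (1.07 [0.960, 1.20]) in fibroblastic stroma. In BEC 8 of 10 semaphorins (median 0.28) and 2 of 5 plexins (median -0.20) were above 0, where 48.7% of all genes were. LEC and BEC thus leaned alike and fibroblastic stroma did not. Whether semaphorins and plexins moved in opposite directions was not tested.

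In BEC 35 genes of the wider list were tested, 2 were higher and 0 lower, a share near the 5.30% and 2.08% of all genes. Besides Sema3d this was Slit3, a ligand of Robo receptors, at 8.13 and 16.3 CPM (2.01-fold [1.74, 2.31]). Slit3 was 117 and 139 CPM in fibroblastic stroma, and the summed fibroblast markers in BEC were 1068 and 1894 CPM, whose part in the result was not tested. Of 10 semaphorins tested in BEC, 8 were above 0 with a median of 0.28, where 48.7% of all genes were above 0. In fibroblastic stroma 37 were tested, 5 were higher and 7 lower, beside 5.44% and 6.52% of all genes. The highest folds were those of Fes at 8.32 and 15.7 CPM (1.89-fold), Plxnb1, a plexin that binds semaphorin 4D, at 8.57 and 15.1 CPM (1.77-fold), Rhod, a small GTPase, at 23.1 and 38.9 CPM (1.69-fold) and Sema3f. The lowest were Sema3c, a secreted semaphorin, at 28.2 and 12.9 CPM (0.458-fold [0.368, 0.568]), the Src-family kinase Fyn at 28.0 and 14.9 CPM (0.531-fold), the UNC5 ligand Flrt2 at 20.5 and 11.5 CPM (0.561-fold) and the neogenin ligand Rgmb at 16.6 and 10.0 CPM (0.603-fold). The make-up of this class differed, with 587 sham and 920 SAH Ccl19 fibroblasts, its dissociation stress genes summed to 11088 and 8855 CPM, and the part of either was not tested.

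**Figure D4:**
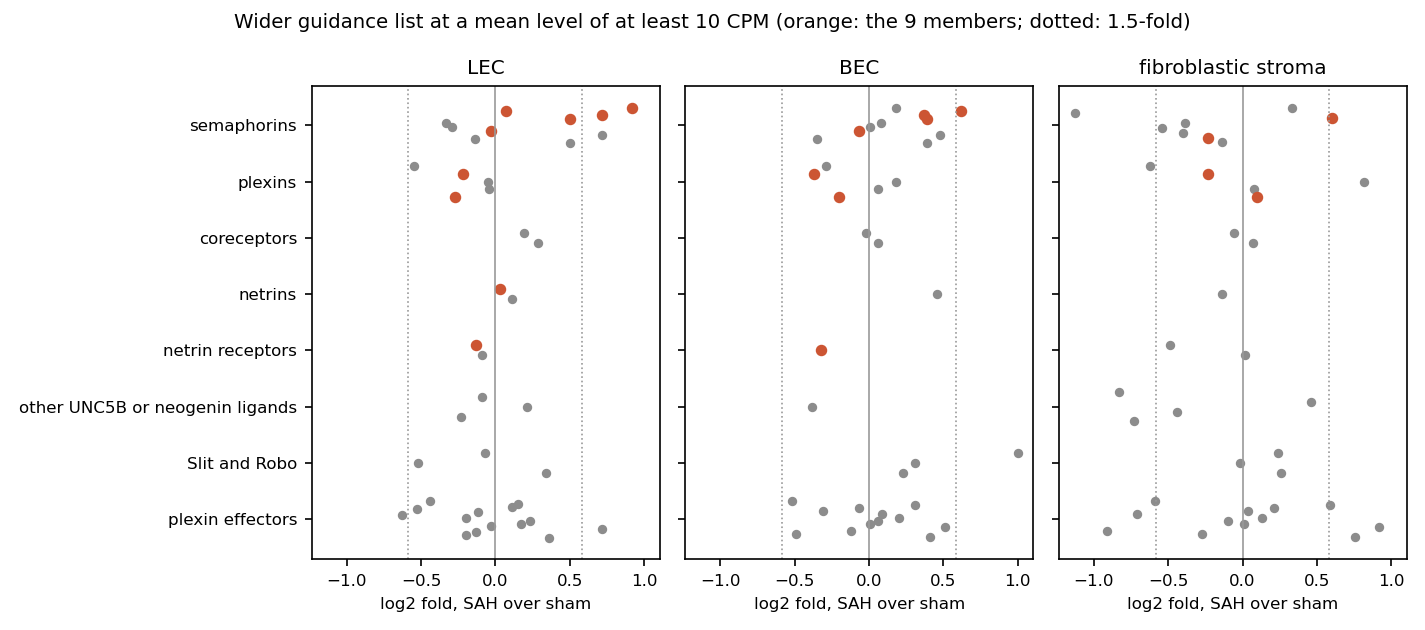
Log2 fold of the SAH over the sham library (horizontal axis) for genes of the wider guidance list with a mean of at least 10 CPM, by role (vertical axis) in LEC, BEC and fibroblastic stroma; orange points are the 9 members and dotted lines mark 1.5-fold. In LEC all 5 plexins lie left of 0, with intervals of Plxnb2 and Plxna4 that span no change, and 6 of 10 semaphorins lie right of it.

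Genes of like pattern were ranked for each member by r of log2(CPM+1) over the 14 points, among 8308 genes with at least 20 CPM in a point, as a description. For Sema3a the closest was Msr1, which encodes a scavenger receptor (r 0.996), at 84.3 and 155 CPM in Ackr4 LEC, 306 and 389 CPM in Madcam1 or Coch LEC and 328 and 606 CPM in Marco LEC, followed by Uxs1 (0.978) and Cpe (0.976). Sema3d was most like Popdc2, the transcription factor gene Tbx1 and Rpap3 (0.989 to 0.986). Sema3f was most like Kank3, Abi3 and Tspan9 (0.974 to 0.968), with Kank3 at 166 and 241 CPM in Col13a1 BEC. Sema3g was most like Car7 (0.967), at 60.1 and 74.6 CPM in Gja5 BEC and at most 6.38 CPM in the other groups, Arhgap5 and Arglu1. The closest to Sema6a were Tmbim6, Zcchc6 and Klf7, to Plxnd1 Tob1, Btnl9 and Adarb1, to Plxna2 Lmo2, Pik3r3 and Ap1s2, and to Unc5b Ubr2, Usp6nl and Cdc42bpa (0.974 to 0.933 in all). Ntn1 had the least close neighbours, B3gnt8 (0.909), Pcdhb9 (0.872) and Arrdc3 (0.870). With log2(CPM+10) 12 of these genes, Car7 and Popdc2 among them, were no longer in the first 3.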

How the data were processed

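For each of the 2 libraries the authors deposited a matrix of unnormalized UMI counts, genes by barcodes. Cell Ranger 5.0, STAR, Seurat 3.0.2 and the build mm10 are listed in the submitters' processing notes, and version 5.0.0 of the counter is given per the file headers. Each molecule was tagged at its 5′ end, per the labels' protocols. The annotation release and whether introns were counted are not given in the sources used here.

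Counts of entries sharing a symbol were summed, and barcodes with at least 500 genes and at most 10% mitochondrial UMIs were kept. Counts were summed over the cells of a group and divided by the group's total (CPM). Folds have exact conditional binomial intervals and shares exact Clopper-Pearson intervals, at 95%. Against 0 counts a floor of 3 counts over the group was used. A call is 1.5-fold at a mean of at least 10 CPM. LEC and BEC subsets had UMIs of exactly 1 marker set. Named were the 9 members, Nrp1, Nrp2 and Neo1, the 4 highest and 4 lowest genes of the wider list past 1.5-fold in each class, and the 3 genes of highest r for each member.

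The members and lists were chosen with earlier results of these data known. Gene positions come from GENCODE M21 (GRCm38). Sema3a, Sema3d, Plxna2, Ntn1 and Unc5b each overlap 1 to 4 other gene models there, so how the authors' counting split such reads is uncertain. Alternatives covered cell filters, doublets (Scrublet in scanpy 1.11.5), gates, thinning, scaling (TMM, edgeR 4.0.16) and thresholds. Python 3.11.15, numpy 2.4.6, scipy 1.17.1 and R 4.3.3 were used, and the fold intervals were tested on simulated data.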

Additional observations from a re-analysis of the deposited data

How the results depend on the processing

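Sema3a and Sema3f stayed past 1.5-fold in LEC under each of 11 alternatives in the choice of cells, gates and scaling, with Sema3a between 1.75 and 2.01 and Sema3f between 1.65 and 1.76. Of the counts of called genes and leading groups, 202 values under an alternative stayed within 1.5 times the reported count and 39 did not. Of the other values, member folds and levels among them, 1030 stayed within their error, 207 moved and 2 reversed, the moved ones including Sema3a in Fut7 or Chst4 BEC (3.41 to 16.0 without the 10 cells of most UMIs) and Ntn1 in Madcam1 or Coch LEC (2.42 to 13.0 under the stricter filter), both from few UMIs. The fold of Sema3g in Marco LEC, 0.577 from few UMIs, turned to 1.23 with at least 1000 genes and at most 5% mitochondrial UMIs (the stricter filter) and to 1.98 with at least 2 Prox1 UMIs. The member called in BEC was lost (1 to 0) under the stricter filter, with Scrublet doublets removed, with at least 3 Ly6c1 and Flt1 UMIs, under TMM scaling, without the 10 cells of most UMIs and with the same composition of subsets. The member higher in fibroblastic stroma was lost (1 to 0) with doublets removed and with at least 10 Dcn and Col3a1 UMIs, and 1 member was lower there without mural cells, against 0. Members with their highest level in Col13a1 BEC in both libraries went from 1 to 2 with a mean over cells and without the 10 cells of most UMIs, which took Gja5 BEC from 2 to 1. In Marco LEC they went from 1 to 2 with doublets removed, with LEC lacking Ly6c1 and Flt1 UMIs and with subsets by the marker with most UMIs.

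In the wider list, the 2 genes higher in BEC became 1 under the stricter filter, with at least 3 Ly6c1 and Flt1 UMIs, with gates on thinned cells, under TMM scaling, with the same composition and at a fold of 2, and 0 with doublets removed. The 7 lower in fibroblastic stroma became 4 with gates on thinned cells. The 1 lower in LEC became 0 with at least 2 Prox1 UMIs and 2 with the same composition. Testing genes with at least 1 UMI in either library gave 13 higher and 6 lower in LEC, 18 and 2 in BEC, and 13 and 15 in fibroblastic stroma. A mean of at least 50 CPM gave 2 higher in LEC, 0 in BEC, and 1 higher and 2 lower in fibroblastic stroma. A fold of 2 gave 0 higher and 0 lower in LEC, 0 higher and 1 lower in fibroblastic stroma. The cause of these moves was not tested beyond what each threshold sets by its construction.

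No paired analysis was possible because each group is 1 library. The direction of the thinned share at 1000 UMIs was that at 2000 UMIs for the members in LEC, BEC and fibroblastic stroma, except Sema3g in fibroblastic stroma and Sema6a in BEC and fibroblastic stroma. Depth limits the small subsets most: 92 sham Marco LEC and 105 SAH Gja5 BEC carry the values given for them, and no interval covers the difference between animals.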
